A study of Mus musculus with 12 samples.

Results

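Imprinted genes were followed in the hippocampus of Fmr1 knockout (KO) and wild-type (WT) mice that had received Nutlin-3 or vehicle. The set holds 35 listed imprinted genes outside the insulin-like growth factor system, of 55421 genes in the files. A gene was tested when it had more than 20 reads in total over the 12 libraries, which 34 of the 35 genes and 22592 of all genes did. The exception was Phlda2, a growth-restraining gene of the placenta, with 5 reads in all.

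Each library was made from the poly(A) RNA of 1 mouse hippocampus, and each of the 4 groups had 3 mice, so that replicates are separate animals. WT-Veh and WT-Nut3 mice were Fmr1 +/y and KO-Veh and KO-Nut3 mice were Fmr1 -/y, a constitutive loss of the gene that is silenced in fragile X syndrome. All received intraperitoneal injections at 2 months of age, 5 in number and given every other day, of vehicle (Veh) or of 10 mg/kg Nutlin-3 (Nut3), an inhibitor of the MDM2 protein that holds p53 in check, and tissue was taken at 6 months. The comparisons ask whether loss of Fmr1 or the earlier treatment is seen in gene expression 4 months later. Between 17150820 and 20040482 reads per library were counted on genes.

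Imprinted genes are read mainly from the copy inherited from a single parent, because methylation laid down in the egg or the sperm marks a control region at each locus. They lie in clusters, and in a cluster a maternally marked and a paternally marked state decide which neighbours are read. In the brain many of them act in growth, sleep, feeding and maternal behaviour, and some, such as Ube3a, are imprinted only in neurons. Reads in these files are summed over both parental copies, so the counts give the amount of RNA and not its parental origin.

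Fmr1, the deleted gene, followed the labels in all 12 libraries. Levels are given as CPM, the reads of a gene scaled to a common total of reads on genes after correction of library sizes by TMM factors. It was at 79.5, 75.3 and 77.7 CPM in WT-Veh and at 75.2, 74.0 and 78.3 CPM in WT-Nut3, against 32.7, 32.5 and 37.3 CPM in KO-Veh and 30.6, 28.5 and 35.7 CPM in KO-Nut3. The KO groups lay below both WT groups with no overlap, although reads on the gene did not disappear. The log2 fold change of KO-Veh against WT-Veh was -1.18 ± 0.07 (SE) with an edgeR adjusted P of 1.76e-06.

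The median level of the 34 genes tested was 5.97 RPKM, the CPM divided by the exon length in kilobases, against 2.09 RPKM over all genes tested, and 27 of them had a mean over 10 CPM and 6 a mean under 5 CPM. The 35 genes lie on 11 chromosomes, and 6 of them are noncoding RNAs: Meg3, Rian, Mirg, H19, Peg13 and Airn.

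Meg3, a noncoding RNA of the Dlk1-Dio3 cluster, was the most abundant at a mean level of 259.9 RPKM. It was followed by Nnat, which codes for the small membrane protein neuronatin, at 142.6 RPKM and by Nap1l5, a retrotransposed relative of nucleosome assembly proteins, at 133.3 RPKM. In the column used here these genes were above the rest, and Nnat and Nap1l5 overlapped in their ranges. Gnas, at 5.55 RPKM in that column, was at 103.4 RPKM when the columns counted by strand were added up, so its place in the order depends on the column.

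Next in level were Peg13, a noncoding RNA within Trappc9, at 60.7 RPKM, Rasgrf1, an exchange factor for Ras in neurons, at 56.7 RPKM and Snrpn, a splicing protein, at 54.8 RPKM. Impact, a regulator of translation, had 46.2 RPKM (mean over the 12 libraries), Ndn or necdin 35.2 RPKM, Rian 33.2 RPKM, the zinc finger gene Peg3 33.2 RPKM and Blcap 32.03 RPKM. The order among Rian, Peg3 and Blcap lies within their spread.

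Between 21.5 and 1.21 RPKM lay, from high to low, Ppp1r9a, Copg2, Inpp5f, Trappc9, Zrsr1, Mest, Gnas, Ube3a, Grb10, Peg10, Plagl1, Zdbf2, Mirg, Dlk1, Sgce, Ddc and Usp29. Cdkn1c, Magel2, Commd1 and Airn had mean levels of 1.15, 0.984, 0.47 and 0.42 RPKM. H19, Calcr and Phlda2 were close to absent, with mean levels of 0.13, 0.027 and 0.0201 RPKM.

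**Figure D1:**
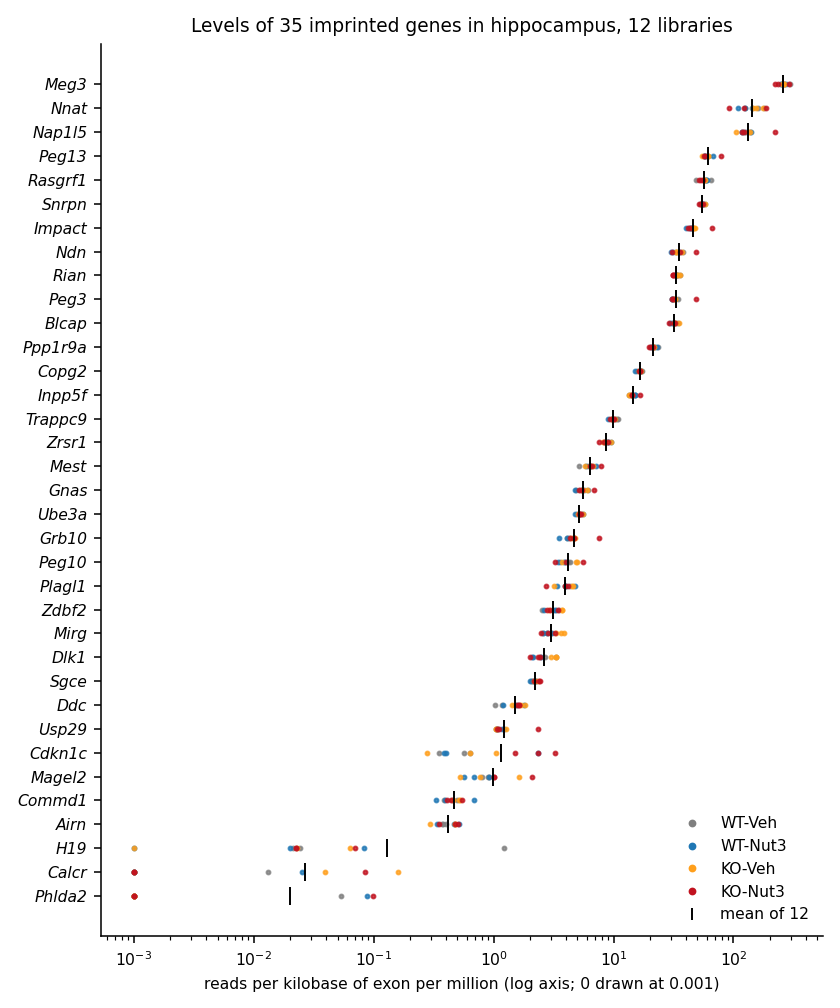
Each point is the level of 1 library in RPKM (log axis, 0 drawn at 0.001), coloured by group, and the black tick is the mean of the 12 libraries. Meg3 is highest at 259.9 RPKM, most genes vary little between groups, and H19 has a single WT-Veh library far above its other values.

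Promoter windows from RefSeq (GRCm38.p6), each 300 bases long and set on a transcript start of RefSeq, were found for 28 of the 35 genes. In 19 of these a window holds the gene start of the annotation used for the other positions here, and in 9, among them Nap1l5 and Mirg, none does. The windows of Cdkn1c, H19, Impact, Peg10, Peg13, Sgce and Trappc9 were not used here. Peg3 and Usp29, a deubiquitinase, start 147 bases apart on opposite strands, and 263 bases of their windows are the same sequence, which is shown because both genes stood out in the same library. The Peg3 window at chr7:6730370-6730669 (minus strand) follows, with CG dinucleotides, the sites of methylation, in capitals.
Peg3: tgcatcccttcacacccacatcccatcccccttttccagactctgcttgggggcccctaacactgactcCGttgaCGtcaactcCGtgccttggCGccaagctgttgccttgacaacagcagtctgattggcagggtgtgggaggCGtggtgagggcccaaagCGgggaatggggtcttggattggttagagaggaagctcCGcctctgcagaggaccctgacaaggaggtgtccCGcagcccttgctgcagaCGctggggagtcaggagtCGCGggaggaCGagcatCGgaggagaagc
It holds 13 CG dinucleotides. Over all windows of the imprinted genes the median was 15 CG, against 7 in 32851 windows of all genes.

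The hexamer TGCCGC is the site that the imprint-keeping protein ZFP57 binds when it is methylated. It was searched on both strands, where the other strand reads GCGGCA. It was found in 12 of 43 windows of the imprinted genes (27.9%) and in 11.6% of all windows, or in 11 of 28 imprinted genes (39.3%) and in 13.1% of 27025 genes. The hexamer itself holds a CG, and the windows of the imprinted genes had a median of 15 CG against 7. Windows per gene also differed, with 43 for the 28 imprinted genes and 32851 for the 27025 genes. Overlapping windows, as in Mest, were each counted. The shares were not matched for these differences and were not tested. Nap1l5 and Nnat are shown because they moved in opposite directions in the library described below, Nap1l5 at chr6:58907077-58907376 (minus strand) and Nnat at chr2:157559828-157560127 (plus strand), with the hexamer on either strand in capitals.
Nap1l5: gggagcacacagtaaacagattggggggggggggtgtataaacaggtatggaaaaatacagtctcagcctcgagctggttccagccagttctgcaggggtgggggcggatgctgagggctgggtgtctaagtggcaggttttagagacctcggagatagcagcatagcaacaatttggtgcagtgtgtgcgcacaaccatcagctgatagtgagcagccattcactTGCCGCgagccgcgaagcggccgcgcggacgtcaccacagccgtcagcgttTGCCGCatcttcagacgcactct
Nnat: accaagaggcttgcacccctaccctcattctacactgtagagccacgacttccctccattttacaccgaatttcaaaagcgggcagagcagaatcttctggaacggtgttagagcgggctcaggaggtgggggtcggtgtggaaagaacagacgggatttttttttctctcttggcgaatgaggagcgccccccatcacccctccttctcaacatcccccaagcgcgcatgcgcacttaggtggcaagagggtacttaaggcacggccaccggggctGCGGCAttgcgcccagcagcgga
A match is a description of the letters, and binding and methylation were not measured in these samples.

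Some libraries stood apart in imprinted genes and are described before the comparisons. KO-Nut3 RH6 (libraries carry the number of the animal) was above the other 11 libraries in 11 of the 34 genes: Gnas, Grb10, Impact, Inpp5f, Magel2, Nap1l5, Ndn, Peg10, Peg13, Peg3 and Usp29. Of all genes tested, 15.3% were highest in this library. It was below the other 11 in Dlk1, Nnat, Plagl1, Ppp1r9a and Rian, which are 5 of 34, and 14.9% of all genes were lowest in it. Among genes over 10 CPM it exceeded 1.3 times the median of the others in 8 of 27 imprinted genes and in 5.8% of 10267 genes. KO-Nut3 RH13 was below the other 11 libraries in 6 of the 34 genes: Blcap, Meg3, Mirg, Peg10, Peg3 and Snrpn. Of all genes, 7.11% were lowest in RH13. RH6 and RH13 were looked at for having these values, so the counts describe these libraries and are not a test.

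The values of RH6 are given for the Peg3 cluster and for Nap1l5, all chosen after their values were seen except Usp29. Peg3 was at 653.1 CPM in RH6 and between 406.7 and 455.6 CPM in the other 11 libraries. Usp29 was at 42.7 CPM in RH6 and between 18.8 and 23.0 CPM in the others, and Nap1l5 at 406.7 CPM against 193.8 to 260.1 CPM. In these 3 genes RH6 lay above the range of the other 11 libraries. The remaining KO-Nut3 libraries lay among those of the other groups, except that RH13 was the lowest library in Peg3.

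Grb10, an adaptor that dampens insulin receptor signalling, was at 69.1 CPM in RH6 and between 31.9 and 43.6 CPM elsewhere. Impact and Ndn, which restrains the growth of neurons, were also chosen after their values were seen. Impact had 341.9 CPM against 207.7 to 243.6 CPM, and Ndn 180.5 CPM against 111.5 to 139.2 CPM. Nnat went the other way, at 169.0 CPM in RH6 against 198.6 to 340.0 CPM. The median coefficient of variation of the 34 genes fell from 14.2% over 12 libraries to 7.7% over the other 11. That of all genes went from 16.7% to 15.5%. RH6 was picked for its values in these genes, so the fall describes the library and is not a test. The median level was 52.1 CPM in the 34 genes and 6.57 CPM in all genes, so these spreads are not matched for level. The imprinted genes took 1.025% of the gene reads of RH6 and between 0.79% and 0.964% in the other libraries.

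Other genes moved with RH6. A list of 12 genes of midbrain tectum and pretectum, transcription factors and the glutamate transporter gene Slc17a6, drawn up after the data were seen, summed to 219.9 CPM in RH6 and to between 10.1 and 23.2 CPM elsewhere, and none of its genes was at 0 in RH6, whereas 2 to 7 of them were at 0 in each other library. The most abundant was Slc17a6, at 112.6 CPM against 8.42 to 22.2 CPM. The mean log2 CPM of 8 thalamus genes, a list that also holds Slc17a6, was 4.85 in RH6 and 3.45 to 3.80 in the others. Rora was its most abundant gene over the 12 libraries together, but in RH6 it was at 77.25 CPM, below Slc17a6. Markers of hippocampal neurons were lower in RH6, with a mean log2 CPM of CA pyramidal markers of 5.54 against 5.78 to 6.07 and of dentate granule markers of 5.58 against 5.77 to 6.32. Their part in the values of the imprinted genes was not tested. In bulk tissue, fewer cells of a type and less RNA per cell cannot be told apart.

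**Figure D2:**
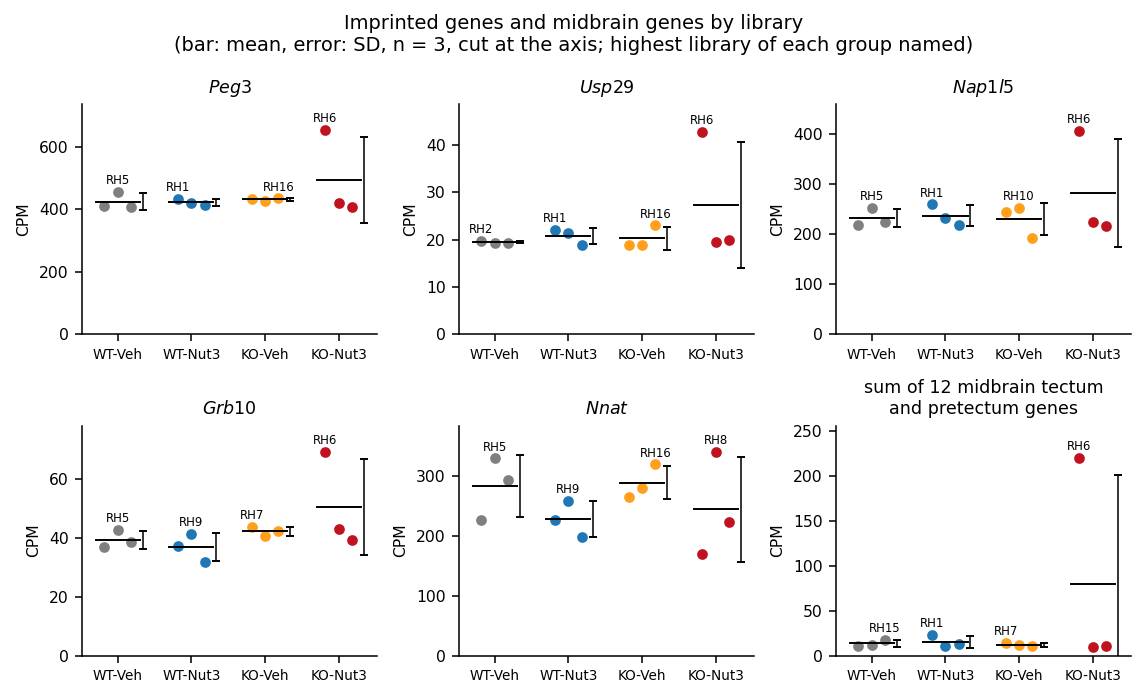
Each point is the CPM of 1 library, the bar is the mean and the error bar the SD of 3 libraries, and the highest library of each group is named. KO-Nut3 RH6 lies above the other 11 libraries for Peg3, Usp29, Nap1l5, Grb10 and the summed midbrain genes, and below them for Nnat.

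WT-Veh RH15 stood apart in H19, a noncoding RNA of fetal and endodermal tissue that is nearly silent in adult brain. The library had 58 reads of H19 at chr7:142575529-142578143 (GRCm38, minus strand), and WT-Veh RH2 and RH5 had 1 read each. There were 4, 1 and 0 reads in WT-Nut3 RH1, RH9 and RH14, 3, 0 and 1 in KO-Veh RH7, RH10 and RH16, and 1, 3 and 1 in KO-Nut3 RH6, RH8 and RH13. RH15 was thus the only library above 4 reads, at 2.99 CPM. It also held 300.8 CPM of 9 salivary gland genes, of which the other libraries had at most 0.916 CPM, and 10.8 CPM of 3 embryonic globins, at most 0.105 CPM elsewhere. Both lists were drawn up after the data were seen, and their part in the H19 value was not tested.

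No imprinted gene passed the edgeR threshold of an adjusted P of 0.05 in any of 8 comparisons. In KO-Veh against WT-Veh 0 of 34 were called, where 0.0177% of all genes were, and in KO-Nut3 against KO-Veh 0 of 34, where 0.199% were. In WT-Nut3 against WT-Veh 0 of 34 were called and 0% of all genes. In the 3 remaining contrasts with a WT group, which set KO-Nut3 beside WT-Veh, KO-Nut3 beside WT-Nut3 and all KO beside all WT, 0 of 34 were called, each with 0.00443% of all genes. For all Nut3 against all Veh and for the interaction of genotype and treatment both counts were 0 (0%). These rates are low, so that a set of 34 genes with no call is close to the background. Libraries of animals numbered from RH9 held 3.33% to 3.55% of reads mapped to several places and those up to RH8 3.07% to 3.22%, a split found in the files, and with it as an added term 0 of 34 were called in each of the 8 comparisons. That term moved the counts over all genes from 45 to 20 in KO-Nut3 against KO-Veh, from 4 to 21 in KO-Veh against WT-Veh and from 0 to 11 for Nutlin-3 in WT mice. They went from 1 to 10 in all KO against all WT, from 1 to 3 for KO-Nut3 beside WT-Veh and from 0 to 3 in all Nut3 against all Veh, and stayed at 1 for genotype under Nutlin-3 and at 0 for the interaction.

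DESeq2 called more genes. It gives some genes no adjusted P, and these are left out of its counts and shares. It called Cdkn1c and Dlk1 in KO-Nut3 against KO-Veh (2 of 32, where 1.35% of all genes were called), Cdkn1c in KO-Nut3 against WT-Veh (1 of 33, 1.11% of all) and Dlk1 in all Nut3 against all Veh (1 of 32, 0.397% of all). It called 0 of 34 in KO-Veh against WT-Veh (0.0975% of all genes) and 0 of 34 for Nutlin-3 in WT mice (0%). It also called 0 of 32 for genotype under Nutlin-3 (0.0359%), 0 of 33 for the interaction (0.00443%) and 0 of 26 in all KO against all WT (0.529%). With limma-voom 0 of 34 were called in every comparison, beside 0.0841% of all genes in KO-Nut3 against KO-Veh, 0.0133% in KO-Veh against WT-Veh, 0.00885% in all KO against all WT, 0.00443% in KO-Nut3 against WT-Veh and against WT-Nut3, and 0% in the other 3.

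At an unadjusted edgeR P under 0.05 stood 4 of the 34 genes in KO-Nut3 against KO-Veh (7.6% of all genes), 4 in KO-Veh against WT-Veh (7.2%) and 3 in WT-Nut3 against WT-Veh (3.17%). There were 3 in KO-Nut3 against WT-Veh (9.17%), 2 in KO-Nut3 against WT-Nut3 (4.87%), 0 for the interaction (4.17%), 3 in all KO against all WT (8.16%) and 3 in all Nut3 against all Veh (7.29%). H19 is among them in the comparisons of KO-Veh, WT-Nut3 and KO-Nut3 with WT-Veh, where it rests on the 58 reads of RH15. Calcr, with 0 to 11 reads per library, is among them in KO-Veh against WT-Veh and in all KO against all WT. Both genes are too thinly read to compare. Single libraries also decide the counts. Without RH6 there were 8 of 34 in KO-Nut3 against KO-Veh (Calcr, Cdkn1c, Dlk1, Impact, Meg3, Mirg, Peg10 and Rian), beside 6.37% of all genes, and 8 of 34 in all Nut3 against all Veh (Blcap, Cdkn1c, Dlk1, Impact, Meg3, Mest, Mirg and Rian), beside 6.06%. Leaving out each library in turn gave 3 to 8 genes in both of these comparisons, 2 to 5 for genotype under vehicle, 1 to 3 for Nutlin-3 in WT mice, 2 to 5 for KO-Nut3 beside WT-Veh, 0 to 5 for genotype under Nutlin-3, 0 to 5 in all KO against all WT and 0 to 2 for the interaction. In KO-Nut3 against KO-Veh without RH6, Calcr had 0 reads in RH8 and RH13 and 3, 0 and 11 in KO-Veh. These reads are too few to compare. Comparisons that share a group of mice are not independent of each other.

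The median log2 fold change of the 34 genes was -0.019 in KO-Nut3 against KO-Veh, 0.025 in KO-Veh against WT-Veh and -0.008 in WT-Nut3 against WT-Veh, and that of all genes was 0.003, -0.004 and 0.000. Of the 34, 24 were above 0 in KO-Veh against WT-Veh, 16 in KO-Nut3 against KO-Veh and 14 in WT-Nut3 against WT-Veh. The count was 20 in KO-Nut3 against WT-Veh, 26 in KO-Nut3 against WT-Nut3 and 24 in all KO against all WT. It was 15 in all Nut3 against all Veh and 21 for the interaction. The share of all genes above 0 was not counted, and these counts of signs were not tested.

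A P-value that misses the threshold does not show that values did not differ, so the 95% intervals are given for the 27 genes over 10 CPM. In KO-Veh against WT-Veh the interval of each of the 27 lay within 0.585 on the log2 scale (1.5-fold) of 0, and the farthest bounds were 0.58 for Mirg and -0.24 for Plagl1. In WT-Nut3 against WT-Veh 26 of 27 did, with Dlk1 reaching -0.63. In KO-Nut3 against KO-Veh 21 of 27 did and 26 lay within a 2-fold change, with Usp29 reaching 1.03 and Dlk1 -0.76. The median distance from a fold change to the bound of its interval was 0.16 in the comparisons of KO-Veh and of WT-Nut3 with WT-Veh and 0.23 in KO-Nut3 against KO-Veh.

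**Figure D3:**
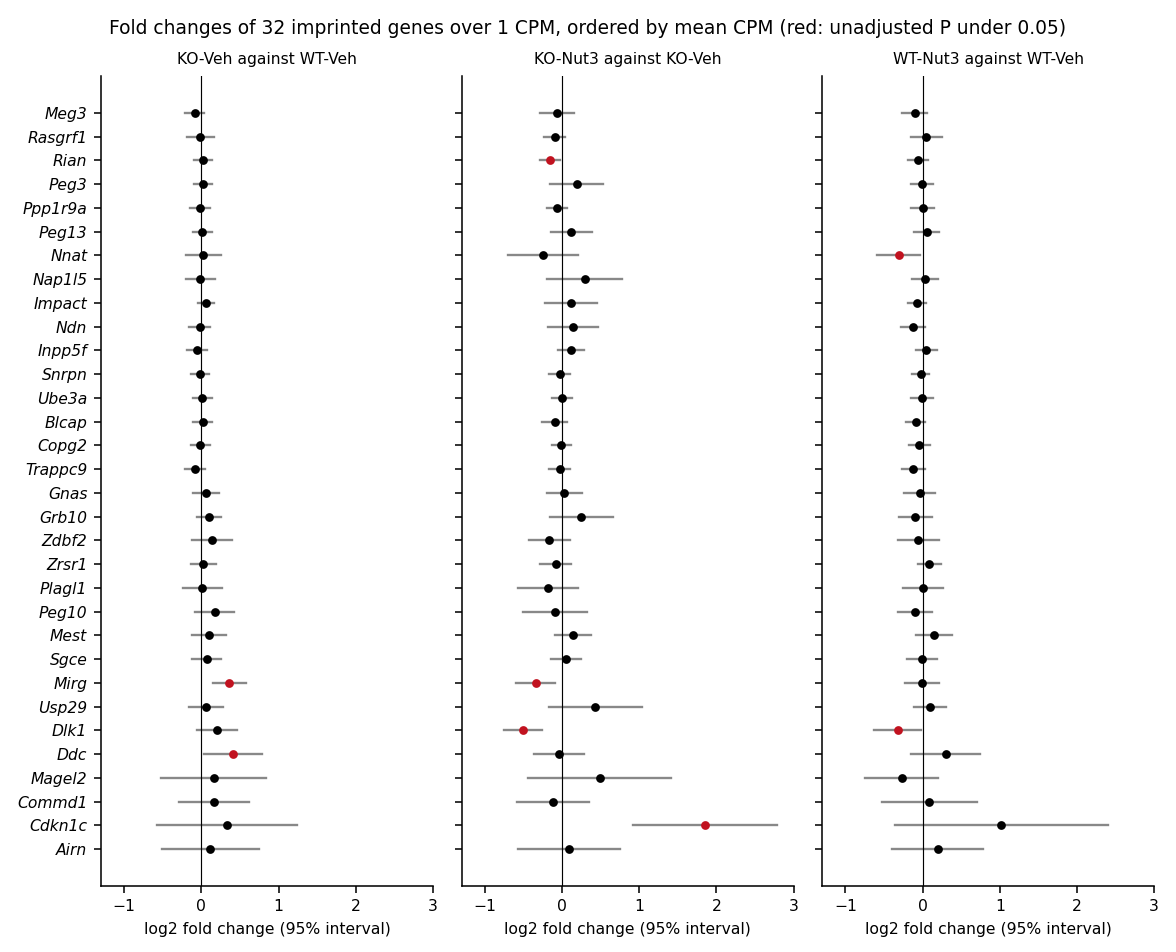
Points are log2 fold changes of the 32 imprinted genes with a mean over 1 CPM, with 95% intervals from edgeR, in 3 comparisons, and red marks an unadjusted P under 0.05. Most intervals of the well-expressed genes stay within 0.585 of 0, and Cdkn1c in KO-Nut3 against KO-Veh, at 1.85, is farthest from it.

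The noncoding RNAs Meg3, Rian and Mirg are read from the maternal copy of the Dlk1-Dio3 cluster on chromosome 12 and Dlk1 from the paternal copy. Mirg was at 18.7, 20.3 and 22.4 CPM in WT-Veh and at 18.9, 21.8 and 20.3 CPM in WT-Nut3. It was at 28.3, 26.7 and 24.0 CPM in KO-Veh and at 23.5, 20.9 and 18.01 CPM in KO-Nut3. KO-Veh therefore lay above the other 3 groups without overlap. The log2 fold change was 0.36 ± 0.10 (SE) in KO-Veh against WT-Veh (edgeR adjusted P = 0.594) and -0.34 ± 0.11 in KO-Nut3 against KO-Veh (edgeR adjusted P = 0.453), and neither passed. The interaction was -0.33 ± 0.16 (edgeR adjusted P = 0.994).

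Mirg (chr12:109729764-109749460 in GRCm38, plus strand) hosts 14 microRNA hairpins with 26 mature microRNAs in RefSeq, which carry 25 different seeds. Shown are the brain microRNA miR-134, known for its part in dendritic spines, and the pair that shares a seed, with the seed (bases 2 to 8) in capitals.
mmu-miR-134-5p: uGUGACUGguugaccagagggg
mmu-miR-453: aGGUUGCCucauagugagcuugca
mmu-miR-496a-5p: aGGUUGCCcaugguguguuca
The reads are of poly(A) RNA, so they measure the host transcript and not these microRNAs.

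Rian, which hosts small nucleolar RNAs, was at 567.1, 568.4 and 575.1 CPM in KO-Nut3, below every library of the other groups. Those lay at 618.2, 632.4 and 646.9 CPM in KO-Veh, at 599.7, 619.4 and 651.8 CPM in WT-Veh and at 591.2, 591.4 and 610.8 CPM in WT-Nut3. The difference was small, with a log2 fold change of -0.15 ± 0.06 in KO-Nut3 against KO-Veh (edgeR adjusted P = 0.557). Meg3 ran from 4023 to 5390 CPM with overlap of all groups and a log2 fold change of -0.06 ± 0.10 in the same comparison. RH6 was at 5241 CPM, whereas KO-Nut3 RH8 and RH13, at 4247 and 4023 CPM, lay below every library of the other groups. Without RH6 Meg3 was among the genes with a small unadjusted P in this comparison, as given above.

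Dlk1 codes for a membrane ligand related to the Notch ligands that is known to take part in adult neurogenesis. It was at 13.8, 18.8 and 15.04 CPM in WT-Veh and at 12.1, 11.9 and 13.96 CPM in WT-Nut3. In KO-Veh it was at 18.9, 17.1 and 18.8 CPM and in KO-Nut3 at 11.5, 13.3 and 13.8 CPM. KO-Nut3 lay below KO-Veh without overlap, and the WT groups overlapped by a single WT-Nut3 library. The log2 fold change was -0.51 ± 0.11 in KO mice (edgeR adjusted P = 0.145, DESeq2 adjusted P = 0.0383) and -0.32 ± 0.14 in WT mice (edgeR adjusted P = 0.998). Over both genotypes it was -0.42 ± 0.09, with an edgeR adjusted P of 0.188 and a DESeq2 adjusted P of 0.00855. Leaving out any single library kept the change in KO mice between -0.56 and -0.43.

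All 4 genes of the cluster had a negative log2 fold change in KO-Nut3 against KO-Veh, with a median of -0.248 beside 0.003 for all genes. All 4 were also negative in WT-Nut3 against WT-Veh, with a median of -0.079 beside 0.000. In KO-Veh against WT-Veh 3 were positive and 1 negative, with a median of 0.111. The cluster was not tested as a set.

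**Figure D4:**
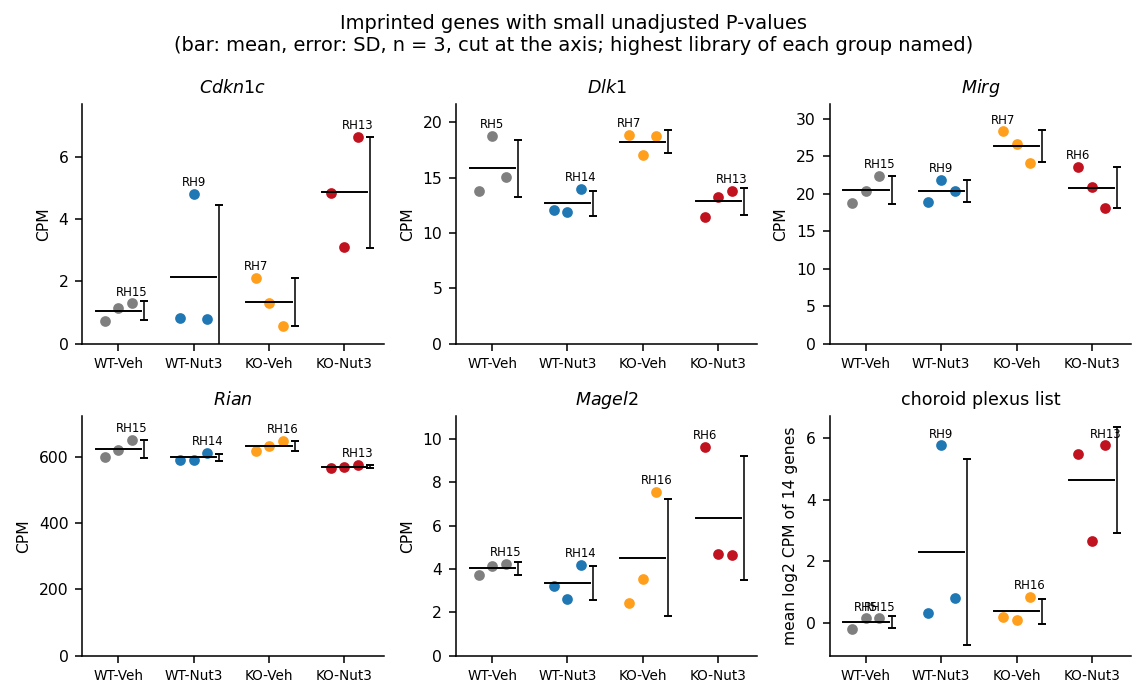
Each point is 1 library, the bar is the mean and the error bar the SD of 3 libraries (cut at the axis), for 5 imprinted genes in CPM and for the mean log2 CPM of 14 choroid plexus markers. Mirg is highest in KO-Veh, KO-Nut3 is lower than KO-Veh for Rian and Dlk1, and Cdkn1c is high in the same libraries as the choroid plexus markers, with values of 3.09 to 6.65 CPM in KO-Nut3.

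Among the growth and cell cycle genes, Cdkn1c codes for the cyclin-dependent kinase inhibitor p57, which holds stem cells in quiescence and is also read in choroid plexus epithelium. It lies at chr7:143458339-143461050 (GRCm38, minus strand), and Gm44732 on the other strand shares 30.6% of its exon bases. It had 87, 54 and 121 reads in KO-Nut3, or 4.83, 3.09 and 6.65 CPM. KO-Veh had 2.12, 1.297 and 0.57 CPM, WT-Veh 0.717, 1.16 and 1.29 CPM, and WT-Nut3 0.812, 4.82 and 0.785 CPM. The 3 KO-Nut3 libraries and WT-Nut3 RH9 were thus above the other 8.

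The log2 fold change of Cdkn1c was 1.85 ± 0.42 in KO-Nut3 against KO-Veh (edgeR adjusted P = 0.161, DESeq2 adjusted P = 0.00112). Against WT-Veh it was 2.19 ± 0.34 in KO-Nut3 (edgeR adjusted P = 0.125, DESeq2 adjusted P = 9.96e-06). Without KO-Nut3 RH8, the lowest of its group, it passed in edgeR at 2.09 (adjusted P = 0.0456) and 2.43 (adjusted P = 0.0076). In WT mice Nut3 against Veh gave 1.02 with all libraries and -0.40 without RH9.

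Choroid plexus markers moved with Cdkn1c. The mean log2 CPM of 14 such genes was 5.49, 2.66 and 5.77 in KO-Nut3 RH6, RH8 and RH13 and 5.77 in WT-Nut3 RH9, and between -0.19 and 0.85 in the other 8 libraries. Their sum was 3662, 403.2, 5230 and 4896 CPM in those 4 libraries and 39.8 to 65.1 CPM in the others. Ttr, or transthyretin, was the most abundant at 3091, 313.5, 4520 and 4215 CPM in those 4 and 3.15 to 18.2 CPM elsewhere. With the choroid plexus score as an added term in a fit of all 12 libraries, the log2 fold change of Cdkn1c in KO-Nut3 against KO-Veh was -0.05, with an edgeR adjusted P of 1. Within KO mice the score itself did not overlap between treatments, so that the markers and the treatment cannot be told apart there. The same term left Dlk1 at -0.44.

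The other growth genes gave smaller differences. Grb10 was at 42.9 and 39.2 CPM in KO-Nut3 RH8 and RH13 beside the 69.1 CPM of RH6, at 43.6, 40.5 and 42.4 CPM in KO-Veh, at 37.0, 41.4 and 31.9 CPM in WT-Nut3 and at 36.9, 42.8 and 38.4 CPM in WT-Veh. All KO against all WT gave a log2 fold change of 0.28 ± 0.12 (edgeR adjusted P = 0.573) and 0.12 without RH6. The groups thus differ mainly by that library.

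Rasgrf1 was at 569.5, 590.7 and 610.6 CPM in KO-Nut3, below the 654.0, 640.0 and 670.0 CPM of WT-Nut3 and the 631.7, 634.3 and 622.4 CPM of KO-Veh. WT-Veh spread over both, at 721.3, 646.6 and 539.7 CPM. KO-Nut3 against WT-Nut3 gave -0.16 ± 0.06 (edgeR adjusted P = 0.928).

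Calcr, the calcitonin receptor, had 0 to 11 reads per library, with 3, 0 and 11 reads in KO-Veh, 6, 0 and 0 in KO-Nut3, 0, 2 and 0 in WT-Nut3 and 0, 0 and 1 in WT-Veh. Reads of 2 libraries made up most of them, and a difference was not detectable at this depth, where 3 reads per library is the floor. Plagl1, a zinc finger regulator of other imprinted genes, ran from 21.4 to 37.5 CPM, with RH6 lowest.

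H19, the noncoding RNA described above, gave a log2 fold change of -3.73 ± 1.34 in KO-Veh against WT-Veh (edgeR adjusted P = 0.631), which rests on the 58 reads of RH15. Without that library the highest count was 4 reads. Airn, the noncoding RNA of the Igf2r locus, was at 1.07 to 1.84 CPM with overlap of all groups.

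The ubiquitin and protein turnover genes include Ube3a, the ligase lost in Angelman syndrome, and Magel2, a ligase partner of the Prader-Willi region. Magel2 was at 9.65, 4.70 and 4.67 CPM in KO-Nut3 and at 3.20, 2.63 and 4.21 CPM in WT-Nut3. It was at 2.43, 3.55 and 7.58 CPM in KO-Veh and at 3.70, 4.15 and 4.22 CPM in WT-Veh. KO-Nut3 lay above both WT groups without overlap but KO-Veh spanned all of them except RH6. Zic1, from a list of 10 genes of hypothalamus and septum, moved with Magel2. The list summed to 80.6, 52.5 and 31.3 CPM in RH6, RH8 and RH13 of KO-Nut3 and to 55.0 CPM in RH16 of KO-Veh, the 4 libraries highest in Magel2, and to between 11.4 and 23.3 CPM in the other 8. Most of this sum was Zic1, its most abundant gene, at 76.8, 48.8, 29.2 and 51.1 CPM in the same order and 8.51 to 20.97 CPM elsewhere, and 1 to 3 of the 10 genes were at 0 in each library. The mean log2 CPM of its 6 tested genes did not follow Magel2 in this way, at 0.46, 0.21, -0.48 and 0.40 in the same order and between -0.41 and 0.24 in the other 8. The part of Zic1 in the Magel2 values was not tested. KO-Nut3 against WT-Nut3 gave 0.92 ± 0.32 (edgeR adjusted P = 0.928) and 0.49 without RH6.

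Ube3a was among the steadiest. It was at 103.2, 110.8 and 106.6 CPM in WT-Veh, at 98.04, 105.4 and 114.7 CPM in WT-Nut3, at 104.3, 105.8 and 113.7 CPM in KO-Veh and at 106.3, 108.2 and 109.9 CPM in KO-Nut3, so all groups overlapped. Group means were 106.9 ± 3.83 CPM (SD, n = 3) in WT-Veh, 106.1 ± 8.37 CPM in WT-Nut3, 107.9 ± 5.06 CPM in KO-Veh and 108.2 ± 1.82 CPM in KO-Nut3. The 95% interval of its log2 fold change was -0.11 to 0.14 in KO-Veh against WT-Veh and -0.13 to 0.13 in KO-Nut3 against KO-Veh.

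Usp29 was at 19.7, 19.3 and 19.3 CPM in WT-Veh, 22.01, 21.4 and 18.8 CPM in WT-Nut3, 18.8, 18.9 and 23.0 CPM in KO-Veh and 42.7, 19.5 and 19.9 CPM in KO-Nut3, where the 42.7 CPM is RH6. It gave a log2 fold change of 0.43 ± 0.27 in KO-Nut3 against KO-Veh (edgeR adjusted P = 0.752) and -0.04 without RH6. Commd1, which takes part in the turnover of copper transporters and NF-kappaB, was at 1.98 to 4.07 CPM and is treated with the overlapping genes below.

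The 8 nuclear and RNA regulators were Peg3, Ndn, Snrpn, Zrsr1, Zdbf2, Nap1l5, Impact and Peg10, a gene derived from a retrotransposon. None of them had an unadjusted P under 0.05 for Nutlin-3 in KO mice, for genotype under vehicle or for Nutlin-3 in WT mice, and their median log2 fold changes were 0.042, 0.023 and -0.041. Without RH6, Impact and Peg10 fell under 0.05 for Nutlin-3 in KO mice. Peg3 illustrates the weight of RH6, with 0.19 ± 0.15 in KO-Nut3 against KO-Veh and -0.06 without that library. Snrpn lay between 112.1 and 124.7 CPM, the smallest relative spread of all 35 genes at a coefficient of variation of 3.33%.

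The 9 genes of membranes, trafficking and metabolism were led by Nnat. Nnat was at 226.9, 329.2 and 293.2 CPM in WT-Veh and at 226.8, 258.5 and 198.6 CPM in WT-Nut3, with a log2 fold change of -0.31 ± 0.12 (edgeR adjusted P = 0.998). The WT groups overlapped, and the size of the change leans on single libraries such as WT-Veh RH5, at 329.2 CPM. KO-Veh had 265.5, 280.5 and 319.3 CPM, and KO-Nut3 ran from 169.0 over 223.0 to 340.0 CPM. The spread within KO-Nut3 was wider than any difference between group means.

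Ddc, the enzyme that makes dopamine and serotonin from their precursors, was at 8.16, 6.37 and 7.52 CPM in KO-Veh and 7.32, 7.22 and 6.97 CPM in KO-Nut3. It was at 5.195, 4.62 and 6.75 CPM in WT-Veh and 5.38, 7.01 and 7.96 CPM in WT-Nut3. KO-Nut3 lay above WT-Veh without overlap, whereas KO-Veh overlapped it by a single library. KO-Veh against WT-Veh gave 0.41 ± 0.18 (edgeR adjusted P = 0.673).

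Mest, a hydrolase-like enzyme read from the paternal copy in mesoderm, was at 25.9, 25.3 and 30.9 CPM in KO-Nut3 and 20.4, 25.2 and 24.0 CPM in WT-Veh. KO-Veh had 22.9, 26.6 and 24.9 CPM and WT-Nut3 25.5, 28.1 and 23.3 CPM. KO-Nut3 against WT-Veh gave 0.24 ± 0.11 (edgeR adjusted P = 0.57). The size of this change leans on RH13, at 30.9 CPM, since RH6 and RH8 lay close to the highest WT-Veh library. Sgce, which codes for a sarcoglycan mutated in myoclonus dystonia, Copg2 of the transport vesicle coat, Trappc9, Inpp5f, Ppp1r9a and Blcap had coefficients of variation between 3.56% and 6.34%.

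Groups that did not overlap were counted for all 34 genes. In KO-Nut3 against KO-Veh Cdkn1c lay above and Dlk1, Mirg, Rasgrf1 and Rian below, 5 of 34, and 13.3% of all genes did not overlap. In KO-Veh against WT-Veh it was Mirg alone, with 12.4% of all genes, and in WT-Nut3 against WT-Veh 0 of 34, with 7.52%. In KO-Nut3 against WT-Veh Cdkn1c, Ddc, Magel2 and Mest lay above and Dlk1 and Rian below, 6 of 34, with 15% of all genes, and in KO-Nut3 against WT-Nut3 Magel2 lay above and Rasgrf1 and Rian below, 3 of 34, with 10.7%. The counts are near the background in KO-Nut3 against KO-Veh, against WT-Veh and against WT-Nut3, and below it in the other 2.

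**Figure D5:**
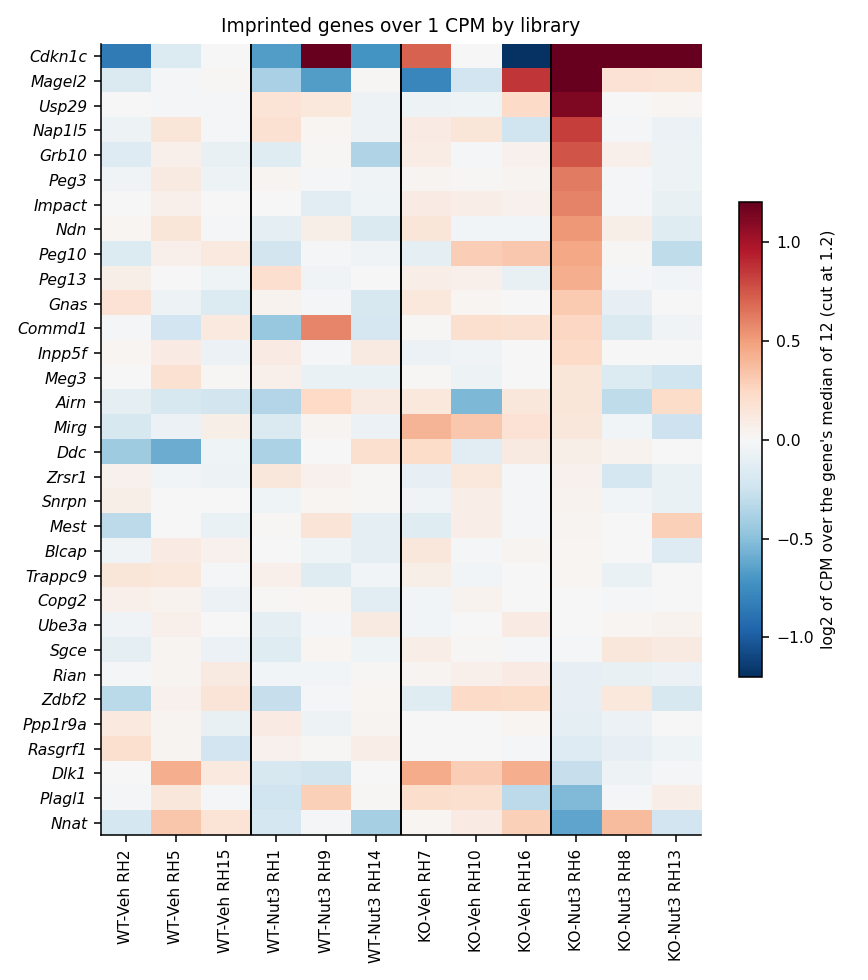
The map shows, for the 32 imprinted genes with a mean over 1 CPM and the 12 libraries, the log2 of the CPM over the gene's median (colour scale cut at 1.2 either way), with genes ordered by their value in KO-Nut3 RH6. RH6 departs in 11 genes that are highest and 5 that are lowest in it, and Cdkn1c is also high in WT-Nut3 RH9.

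Overlap with other genes limits some levels. The deposited column used here leaves out reads that fall on exons shared by genes on either strand, and 17 of the 35 genes share exon bases with another gene. When the columns counted by strand were added up, 8 genes gained over 1.5 times: Gnas, Commd1, Cdkn1c, Ube3a, Zrsr1, Usp29, Mest and H19. Reads of a gene and its antisense partner cannot be told apart in these unstranded libraries, so neither count is the true level.

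Gnas, the G protein subunit that couples receptors to cyclic AMP, went from 13730 to 277989 reads, or from 5.55 to 103.4 RPKM, next to the antisense RNA Nespas and to Gm20721. In the column used here it was at 69.1, 58.8 and 54.9 CPM in WT-Veh, 63.0, 60.7 and 53.7 CPM in WT-Nut3, 66.7, 62.3 and 61.6 CPM in KO-Veh and 76.2, 57.4 and 61.1 CPM in KO-Nut3, with overlapping groups and RH6 highest, and in the added strand columns at 1108 to 1251 CPM. KO-Veh against WT-Veh gave 0.06 ± 0.08 in the first and -0.05 ± 0.05 in the second.

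Zrsr1, which codes for a splicing factor linked to minor introns, lies within the span of Commd1 on the other strand. In the annotation used here 9.17% of its exon bases are shared with Commd1. The numbers of reads rose from 619 to 7110 for Commd1 and by 1.75 times for Zrsr1. Zrsr1 was at 40.4, 38.2 and 37.4 CPM in WT-Veh, 42.9, 40.4 and 39.5 CPM in WT-Nut3, 36.6, 42.6 and 38.7 CPM in KO-Veh and 40.6, 33.8 and 37.1 CPM in KO-Nut3, and all groups overlapped. Its group means were 38.7 ± 1.55 CPM (SD, n = 3) in WT-Veh, 40.9 ± 1.72 CPM in WT-Nut3, 39.3 ± 3.03 CPM in KO-Veh and 37.1 ± 3.40 CPM in KO-Nut3. Commd1 was at 2.69, 2.31 and 2.94 CPM in WT-Veh, 1.98, 4.07 and 2.36 CPM in WT-Nut3, 2.74, 3.10 and 3.08 CPM in KO-Veh and 3.22, 2.41 and 2.64 CPM in KO-Nut3, again with overlap. Its group means were 2.65 ± 0.31, 2.80 ± 1.12, 2.97 ± 0.20 and 2.75 ± 0.42 CPM in the same order. Ube3a rose 1.84 times beside its antisense RNA Snhg14, Usp29 1.68 times and Mest, which ends in Copg2, 1.57 times. For Cdkn1c the strand columns gave 1.96 ± 0.33 in KO-Nut3 against KO-Veh (edgeR adjusted P = 0.0638) and 1.76 ± 0.33 against WT-Veh (edgeR adjusted P = 0.143).

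Neighbours at a locus were compared over the 12 libraries after each group's mean was removed. Of 15 pairs, 0 had a Benjamini-Hochberg adjusted P under 0.05 by an exact two-sided permutation test within groups, whose smallest possible P is 0.000772. Peg3 and Usp29, which share the start region printed above, had the highest correlation, with Pearson's r = 0.937 (exact permutation P = 0.044, adjusted 0.457) and Spearman's rho = 0.748 (exact permutation P = 0.0255, adjusted 0.191). It rests on RH6, since r was 0.206 without that library and 0.514 without RH6 and WT-Veh RH5, the libraries farthest from the median of Peg3. Peg13 and its host Trappc9 had r = 0.552 (exact permutation P = 0.061, adjusted 0.457) and rho = 0.657 (exact permutation P = 0.0193, adjusted 0.191), with r = 0.702 without RH6 and 0.508 without RH6 and WT-Nut3 RH1. The remaining pairs had r between -0.282 and 0.423, and several of these values also rest on RH6. Without that library r went from 0.216 to 0.66 for Nnat and Blcap, from -0.0856 to 0.536 for Dlk1 and Meg3 and from 0.228 to -0.524 for Ndn and Magel2. It went from 0.423 to -0.0845 for Meg3 and Mirg and from -0.282 to 0.151 for Sgce and Peg10. These values without RH6 are a description, with no test.

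Beyond the 35 genes, 46 of 50 further imprinted genes were tested and 0 were called by edgeR in any comparison, where 0% to 0.199% of all genes were. At an unadjusted P under 0.05 stood 9 of 46 in KO-Nut3 against KO-Veh (6 higher, 3 lower) beside 7.6% of all genes, 7 of 46 in KO-Veh against WT-Veh (4 and 3) beside 7.2%, and 4 of 46 for Nutlin-3 in WT mice (1 and 3) beside 3.17%. These shares of the 46 lie above those of all genes, and the difference was not tested. Pon2, a paraoxonase, was at 49.1, 45.3 and 49.1 CPM in KO-Nut3 RH6, RH8 and RH13 and at 37.5, 36.5 and 38.7 CPM in WT-Veh RH15, RH2 and RH5, with a log2 fold change of 0.35 ± 0.07 (edgeR adjusted P = 0.172).

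Pon3, its neighbour, was at 8.65, 2.23 and 10.4 CPM in the same KO-Nut3 libraries and at 11.4 CPM in WT-Nut3 RH9, and at 1.22 to 2.27 CPM in the other 8. Its high libraries were those with high choroid plexus markers, except that RH8 stayed near the rest. KO-Nut3 against WT-Veh gave 2.06 ± 0.48 (edgeR adjusted P = 0.222) for Pon3, and 2.48 ± 0.22 without RH8 (edgeR adjusted P = 0.00108), which passed. Leaving out any other library of these groups gave 1.675 to 2.214, with edgeR adjusted P from 0.3048 to 0.7307, and none passed. Cobl, a nucleator of actin filaments, was at 17.7, 17.43 and 19 CPM in KO-Veh RH10, RH16 and RH7 and at 33.5, 21.7 and 22.8 CPM in WT-Veh RH15, RH2 and RH5, a log2 fold change of -0.53 ± 0.14 (edgeR adjusted P = 0.594) and of -0.30 ± 0.10 without RH15. Dio3, a deiodinase at the end of the Dlk1 cluster that was picked out after its values were seen, was at 8.90, 6.51 and 7.98 CPM in WT-Veh and at 4.87, 6.16 and 5.61 CPM in WT-Nut3. It was at 7.23, 7.67 and 9.29 CPM in KO-Veh and at 0.444, 5.04 and 5.44 CPM in KO-Nut3, where the 0.444 CPM is RH6. The Nut3 groups lay below the Veh groups of both genotypes without overlap, also without RH6. Of all genes, 13.3% did not overlap between KO-Nut3 and KO-Veh and 7.52% between WT-Nut3 and WT-Veh. These shares are for each pair of groups alone, and the share of genes that separate in both genotypes was not counted. Dio3 was not called by edgeR in either, where the smallest adjusted P of the further imprinted genes was 0.23 in KO and 0.998 in WT mice. It was also not called in all Nut3 against all Veh, where their smallest edgeR adjusted P was 0.252.

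Of 25 genes that set or keep imprints, such as DNA methyltransferases and the zinc finger protein Zfp57, 23 were tested. By edgeR 0 were called in any comparison, where 0% to 0.199% of all genes were. In all KO against all WT 2 of 23 had an unadjusted P under 0.05, beside 8.16% of all genes. There were 0 of 23 for the interaction, beside 4.17%, and 0 of 23 in all Nut3 against all Veh, beside 7.29%. At an unadjusted P under 0.05 there was 1 of 23 in KO-Veh against WT-Veh, beside 7.2% of all genes, and 0 of 23 in the other 4 comparisons of pairs of groups, where 3.17% to 9.17% of all genes did. It was Arid4a, a chromatin protein known to affect the Prader-Willi imprint, at 57.0, 54.3 and 55.2 CPM in KO-Veh RH10, RH16 and RH7 and 50.3, 45.6 and 50.2 CPM in WT-Veh RH15, RH2 and RH5, with 0.19 ± 0.06 (edgeR adjusted P = 0.613). Ehmt2, a histone H3 methyltransferase, gave -0.12 ± 0.06 in KO-Nut3 against WT-Nut3 (edgeR adjusted P = 0.928), at 210.7 to 226.8 CPM against 234.5 to 241.2 CPM, without overlap. Dnmt3l, a partner of the methyltransferases in germ cells, was below 0.6 CPM in every library, and its difference was not detectable at this depth.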

How the data were processed

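Hippocampal poly(A) RNA of 12 mice was sequenced, with 3 mice in each of 4 groups that were taken from the sample labels. According to the study's methods and the submitters' processing notes, the authors mapped the reads to mm10 with STAR and deposited raw counts of reads per gene. The unstranded column of counts was used, since the columns for either strand held near-equal shares of the reads. The labels name a single-read sequencer run and the methods paired-end reads. A table with the authors' own fold changes and P-values was not used. Gene models of GENCODE M21 (GRCm38) gave positions and exon lengths for 55240 of 55421 identifiers.

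In edgeR 4.0.16 (R 4.3.3), TMM factors and a quasi-likelihood F-test (two-sided) were applied to 22592 genes with more than 20 counts in total, with 6 libraries for each pair of groups, and the interaction and additive models on 12 libraries. P-values were adjusted over all genes tested (Benjamini-Hochberg, threshold 0.05). Correlations used log2 CPM with a prior count of 1. The procedure was tested on simulated data. DESeq2 1.42.0, limma-voom 3.58.1, other filters, size factors, dispersion, count columns, marker and animal number terms and leaving out each library were alternatives.

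Members and lists were chosen with earlier results of these data known. Every library's value is given for genes past the threshold in edgeR, for the 12 members with the smallest unadjusted P in a pairwise comparison and for members whose strand columns exceed 1.5 times the count, and the 3 genes of smallest P are named from each other list. Other genes were chosen after their values were seen. Depth was 17150820 to 20040482 reads on genes per library.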

Additional observations from a re-analysis of the deposited data

How the results depend on the processing

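The count of imprinted genes called, 0 of 34 in each comparison, held in 137 alternative fits and rose in 11. DESeq2 called 2 in KO-Nut3 against KO-Veh (Cdkn1c and Dlk1), 1 in KO-Nut3 against WT-Veh (Cdkn1c) and 1 in all Nut3 against all Veh (Dlk1). With every gene of at least 1 count kept, edgeR called 2 in KO-Nut3 against KO-Veh (Cdkn1c, Dlk1), 2 in KO-Veh against WT-Veh (H19, Mirg), 2 in WT-Nut3 against WT-Veh (H19, Nnat), 1 in KO-Nut3 against WT-Veh (Cdkn1c), 1 in all KO against all WT (Grb10) and 3 in all Nut3 against all Veh (Cdkn1c, Dlk1, Nnat). Of all genes, the same setting called 544, 272, 249, 416, 239 and 539 in these 6 comparisons in that order, where the filter of more than 20 counts gave 45, 4, 0, 1, 1 and 0, and DESeq2 called 245, 22, 0, 222, 43 and 79. The cause was not tested. Leaving out a library gave 0 to 1 calls, the 1 being Cdkn1c without KO-Nut3 RH8 in KO-Nut3 against KO-Veh and against WT-Veh, where 266 and 197 of all genes were then called, against 45 and 1 with all libraries. Among differences with an unadjusted P under 0.05, reversed signs of the log2 fold change were -0.05 (choroid plexus term) and -0.31 (choroid plexus and fibroblast terms) for Cdkn1c in KO-Nut3 against KO-Veh, -0.26 (choroid plexus term) in all Nut3 against all Veh, and for H19 without WT-Veh RH15 0.35 in KO-Veh, 0.57 in WT-Nut3 and 0.67 in KO-Nut3, each against WT-Veh and at counts of 4 or fewer, while leaving out other libraries took these 3 down to -4.90, -5.00 and -4.09. Differences further from the threshold also turned, such as those given above for Cdkn1c in WT mice without RH9 and for Peg3 and Usp29 without RH6. The correlation of Snrpn and Ube3a, -0.04 with TMM factors, was 0.02 with DESeq2 size factors. Leaving out RH6 turned the sign of 7 of the 15 correlations, among them Ndn and Magel2 (0.23 to -0.52), Dlk1 and Meg3 (-0.09 to 0.54), Meg3 and Mirg (0.42 to -0.08) and Sgce and Peg10 (-0.28 to 0.15). The correlations without RH6 and the values of Pon3 and Cobl with a library left out were added after the data were seen. No paired analysis was possible because no animal number occurs in more than 1 group.

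With 3 mice a group, small changes lie within the intervals, and Phlda2, Calcr and H19 are too thinly read to compare. Library RH6 enters every KO-Nut3 value. Neither allele-specific reads nor methylation were analysed here.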
